A study of Homo sapiens with 12 samples.

Results

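The baseline miRNA profiles of 2 human PDAC (pancreatic ductal adenocarcinoma) cell lines, AsPC-1 and PANC-1, were compared. Of the 12 small RNA libraries of the series, the 6 control libraries were used for this, 3 of AsPC-1 and 3 of PANC-1, and they were chosen by their labels as the libraries without MYEOV knockdown. AsPC-1 was established from ascites and PANC-1 from a tumor of the pancreatic duct. The labels call these control cells WT and untreated, whereas the methods describe a negative-control siRNA, and the harvest time is also given differently (24 h and 48 h). AsPC-1 was grown in RPMI 1640 and PANC-1 in DMEM, both with serum, so line and culture medium cannot be told apart. The methods say in general that experiments were repeated independently, but neither they nor the labels say of these libraries that the 3 of a line came from separate cultures, and the p-values therefore measure the spread between these libraries, which may be technical. The 6 libraries listed 1603 miRNAs, of which 627 had enough reads to be tested.

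A miRNA is cut from a hairpin precursor and guides the silencing complex to mRNAs, mainly by pairing of its seed, bases 2 to 8. MiRNAs with the same seed share many targets. Hairpins that lie close together on a chromosome are often made from one transcript, so that neighbours tend to be present or absent together. Some miRNAs mark a tissue or a cell state: the miR-200 family keeps epithelial cells epithelial by silencing ZEB1 and ZEB2, miR-192 and miR-194 mark gut and liver epithelium, and the imprinted 14q32 cluster is used in embryonic and neural tissue.

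The mature sequences that the comparison turned on are shown 5′ to 3′ with the seed in capitals (RefSeq, GRCh38.p14). Those that were high in AsPC-1 and nearly absent from PANC-1 included the pairs and triplets with a shared seed from the miR-192 and miR-200 families, miR-194-5p, and the neighbours miR-224-5p and miR-452-5p:
miR-192-5p: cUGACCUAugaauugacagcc
miR-215-5p: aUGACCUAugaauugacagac
miR-194-5p: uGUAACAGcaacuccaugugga
miR-200b-3p: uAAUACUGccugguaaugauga
miR-200c-3p: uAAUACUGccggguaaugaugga
miR-429: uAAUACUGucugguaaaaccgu
miR-200a-3p: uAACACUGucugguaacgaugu
miR-141-3p: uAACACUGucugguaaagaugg
miR-224-5p: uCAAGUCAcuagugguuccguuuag
miR-452-5p: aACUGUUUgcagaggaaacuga

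Those that were high in PANC-1 are shown for the leading 14q32 miRNAs, the seed group of miR-99 and miR-100, miR-146a-5p, miR-9-5p, miR-218-5p and miR-744-5p:
miR-381-3p: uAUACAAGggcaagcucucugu
miR-493-5p: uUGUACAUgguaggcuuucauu
miR-370-3p: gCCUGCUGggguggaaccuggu
miR-100-5p: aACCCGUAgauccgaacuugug
miR-99a-5p: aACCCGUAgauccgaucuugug
miR-99b-5p: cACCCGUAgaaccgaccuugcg
miR-146a-5p: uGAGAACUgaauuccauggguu
miR-9-5p: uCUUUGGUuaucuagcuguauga
miR-218-5p: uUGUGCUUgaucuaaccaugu
miR-744-5p: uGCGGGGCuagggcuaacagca

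One more set is shown because members with one seed went in different directions, namely miR-196a and miR-196b, let-7i and let-7e, and miR-92a and miR-363:
miR-196a-5p: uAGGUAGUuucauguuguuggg
miR-196b-5p: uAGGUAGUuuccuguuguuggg
let-7i-5p: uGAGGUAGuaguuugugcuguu
let-7e-5p: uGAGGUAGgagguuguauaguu
miR-92a-3p: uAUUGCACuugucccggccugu
miR-363-3p: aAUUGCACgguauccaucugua

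An AsPC-1 library held 6463528 to 7311783 counted reads, and a PANC-1 library 3805084 to 5049361, so depth moved with the line. Levels are given as CPM, counts relative to the library's total after TMM scaling, and 3 reads over the 3 libraries of a line equal 0.161 CPM in AsPC-1 and 0.204 CPM in PANC-1. This floor covers counting error only, since PCR reads without molecular identifiers are not independent molecules. AsPC-1 control replicate 1 stood slightly apart from the other 2 AsPC-1 libraries, with a median absolute log2 difference of 0.216 to them against 0.141 between them.

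Most of the miRNA repertoire differed between the lines. Of the 627 miRNAs, 519 (82.8%) were DE miRNAs at an adjusted p under 0.05 (edgeR's quasi-likelihood F test, p-values adjusted by Benjamini and Hochberg). AsPC-1 had the higher level of 226 of them (36% of those tested) and PANC-1 of 293 (46.7%). At an absolute LFC (log2 fold change, AsPC-1 minus PANC-1) of at least 1, 155 (24.7%) had the higher level in AsPC-1, against 229 (36.5%) in PANC-1. The libraries of the lines did not overlap for 515 miRNAs (82.1%). Upper-quartile scaling raised all LFCs by a median of 0.92 and turned the split of calls to 345 higher in AsPC-1 against 200 higher in PANC-1, and total count scaling lowered them by 0.34. No call with an absolute LFC of at least 1 changed its sign under any scaling tried.

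**Figure D1:**
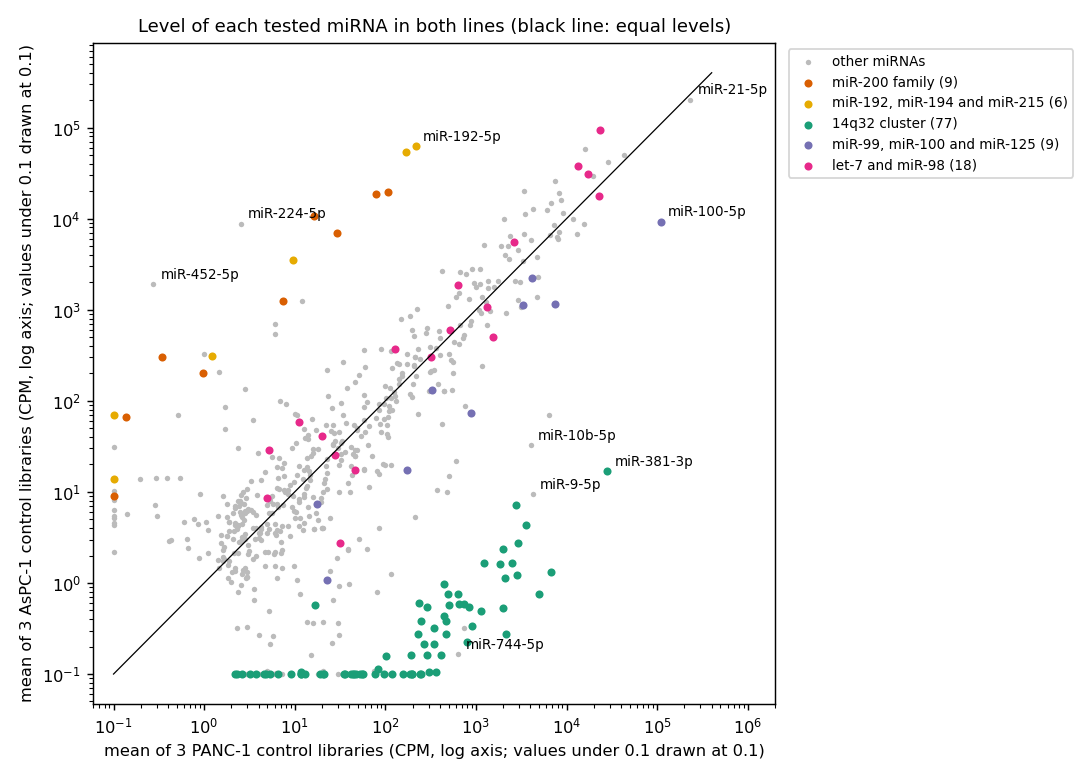
Mean level of the 627 tested miRNAs in the 3 PANC-1 (horizontal) and the 3 AsPC-1 (vertical) control libraries, in CPM on log axes, coloured by list. The 14q32 miRNAs lie far below the line of equal levels, the miR-200 family and the list of miR-192, miR-194 and miR-215 far above it, and miR-21-5p close to it.

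The libraries of AsPC-1 held the epithelial miR-200 family and the gut-type miR-192, miR-194 and miR-215, which by share of reads were nearly absent from PANC-1. Epithelial markers outside the miR-200 family did not follow. MiR-203a-3p was not called (7.28 CPM in AsPC-1 against 6.36 in PANC-1), and miR-205-5p had no read. All 9 tested members of the miR-200 family were higher in AsPC-1, with LFCs from 7.38 to 9.7 (36% of all tested miRNAs were higher in AsPC-1, and 5 members were called with at least 10 counts required in every library), and held 5.15% ± 0.206 of its reads against 0.027% ± 0.00138 in PANC-1 (SD, n = 3). MiR-200b-3p, the most abundant of them, had 19440, 19230 and 20160 CPM in the AsPC-1 libraries and 102.2, 107.5 and 109.9 CPM in the PANC-1 libraries. The lowest AsPC-1 value was thus far above the highest of PANC-1, and the LFC was 7.53 ± 0.117 (SE, adjusted p = 1.76e-16, edgeR). MiR-200c-3p, from the other gene copy of the family, had 10850, 10310 and 10880 CPM against 17.33, 17.09 and 14.34. Both genomic copies followed the same direction: MIR200B, MIR200A and MIR429 at chr1:1102484-1104467 and MIR200C with MIR141 at chr12:7072862-7073354 (hg19).

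All 6 miRNAs of the list of miR-192, miR-194 and miR-215 were higher in AsPC-1 as well (36% of all tested miRNAs), with LFCs from 8.05 to 9.58. With at least 10 counts required in every library, 3 were. Together they held 10.6% ± 0.961 of the reads in AsPC-1 and 0.0445% ± 0.00444 in PANC-1. MiR-192-5p had 60530, 59980 and 65720 CPM against 221.9, 202.8 and 226.5, a 286-fold difference (LFC 8.16 ± 0.124, adjusted p = 1.76e-16, edgeR). MiR-194-5p, which is made from hairpins beside MIR192 on chromosome 11 and beside MIR215 on chromosome 1, had 64010, 47950 and 47950 CPM against 190.9, 154.3 and 156.1. MiR-215-5p, with the seed of miR-192-5p, was lower than both but differed by a like factor (3529 ± 238 against 9.57 ± 2.34 CPM).

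The largest difference in favour of AsPC-1 was that of miR-452-5p and miR-224-5p, whose hairpins lie in the gene GABRE on the X chromosome (chrX:151127050-151127130 for MIR224 and chrX:151128100-151128184 for MIR452, hg19). MiR-224-5p, a miRNA often raised in liver cancer, had 7525, 9681 and 9179 CPM in AsPC-1 and 3.875, 1.585 and 2.188 CPM in PANC-1. The LFC was 11.76 ± 0.223 (adjusted p = 7.35e-16, edgeR). MiR-452-5p had 35591 reads in the 3 AsPC-1 libraries and 4 in the 3 PANC-1 libraries. The opposite arm of miR-224-5p, miR-224-3p, had 568 and 0, at least 151-fold more in AsPC-1. Other miRNAs inside protein-coding genes that were read almost only in AsPC-1 were miR-582-5p in PDE4D (323 against 0.990 CPM), miR-584-5p in SH3TC2 (537 against 6.08 CPM) and miR-135b-5p in LEMD1 (1238 against 12.03 CPM). MiR-192-3p, miR-200c-5p, miR-676-3p and miR-548v, like miR-224-3p, had no read in PANC-1, at 6.33 to 30.7 CPM in AsPC-1.

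Several cancer-related clusters were moderately higher in AsPC-1. The miR-17-92 cluster on chromosome 13 is induced by MYC and silences BIM. All 9 tested arms made from this cluster alone were higher in AsPC-1, with LFCs from 1.06 to 2.75. Its member miR-20a-5p had 25260, 17420 and 17960 CPM against 3963, 3183 and 3104, and miR-17-5p had 12820, 8239 and 8433 against 2370, 1942 and 1795. AsPC-1 control replicate 1 was the highest for both, and neither overlapped between the lines (82.1% of all tested miRNAs did not). Of the tested miRNAs made from a single hairpin gene, all 14 on chromosome 13 were higher in AsPC-1, where 36% of all tested miRNAs were. Of these 14, 9 are those of this cluster. MiR-16-5p, made on chromosomes 3 and 13, is not among them and was not called. Of the whole list of miR-17-92 and its paralogous clusters, 15 of 22 were higher in AsPC-1 against 5 in PANC-1. The PANC-1 count was 3 with at least 10 counts required in every library and 8 without a filter. In the X-linked copy, miR-363-3p went the other way, with no read in AsPC-1 and 185, 196.9 and 225.1 CPM in PANC-1. It passed the filter on low counts through PANC-1 alone. MiR-20b-5p of the same copy had 0.218 against 25.9 CPM, while miR-106a-5p had 16.9 ± 5.07 against 14.3 ± 1.85 CPM and was not called (adjusted p = 0.312, edgeR).

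The pair of miR-221 and miR-222, which silences the cell cycle inhibitor p27, was higher in AsPC-1 in 4 of 4 arms. MiR-221-3p had 19350 ± 918 CPM against 8327 ± 125, and miR-222-3p had 5173 ± 232 against 1233 ± 96.6. The cluster of miR-183, miR-96 and miR-182, known from sensory organs, was higher in 6 of 6 arms, by LFCs of 0.78 to 1.83. All 5 members of the miR-26 family were higher too, as were 5 of 7 of the miR-29 family, which silences collagens and other matrix genes, and 6 of 9 of the miR-181 family, where 36% of all tested miRNAs were higher in AsPC-1 (345 of 627 with upper-quartile scaling). MiR-7-5p, a miRNA of islet cells that is also made from the housekeeping gene HNRNPK, had 50700, 63680 and 61320 CPM against 13500, 17070 and 17600. The other islet marker, miR-375, was low in both lines and went the other way, with 1.54 ± 0.752 CPM in AsPC-1 against 9.91 ± 1.11 in PANC-1 (LFC −2.65 ± 0.31, adjusted p = 1.56e-06, edgeR).

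The list with the most members called in 1 direction was the 14q32 cluster, the imprinted block of miRNAs between the genes DLK1 and DIO3 that is expressed from the maternal chromosome. Of 90 listed members, 77 were tested. All 77 were higher in PANC-1, and none overlapped between the lines (46.7% and 82.1% of all tested miRNAs). Most of them passed the filter on low counts through PANC-1 alone and so had to differ, and with at least 10 counts required in every library, 5 were left as higher in PANC-1. The median LFC was −10.05, and −9.61 with members that had no AsPC-1 read set at the floor of 3 reads, against −0.27 over all tested miRNAs. The 45 hairpins with a position span chr14:101335397-101533138 (hg19), from MIR493 to MIR656. The 90 listed members together held 1171634 reads in PANC-1 and 1028 in AsPC-1, and 28 of the 77 tested members had no AsPC-1 read. As a share, the cluster took 8.77%, 8.99% and 9.19% of the reads in the PANC-1 libraries and 0.00503%, 0.00454% and 0.00518% in the AsPC-1 libraries.

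MiR-381-3p, the most abundant of the cluster, had 25210, 26890 and 32370 CPM in PANC-1 and 14.78, 17.54 and 18.34 CPM in AsPC-1. The LFC was −10.7 ± 0.169 (adjusted p = 1.76e-16, edgeR). MiR-493-5p had 6321, 7051 and 6809 CPM against 0.5098, 2.233 and 1.243, and miR-370-3p had 3969, 5345 and 5440 against 0.5098, 1.116 and 0.6216. These AsPC-1 levels correspond to 25 and 14 reads in all. MiR-127-3p, which lies antisense to RTL1 and silences it, had 29452 reads in PANC-1 and 10 in AsPC-1. MiR-431-5p, miR-432-5p, miR-337-3p and miR-136-5p had 2264 to 3678 reads in PANC-1 and none in AsPC-1, so that miR-431-5p was at least 1551-fold higher and miR-136-5p at least 960-fold.

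**Figure D2:**
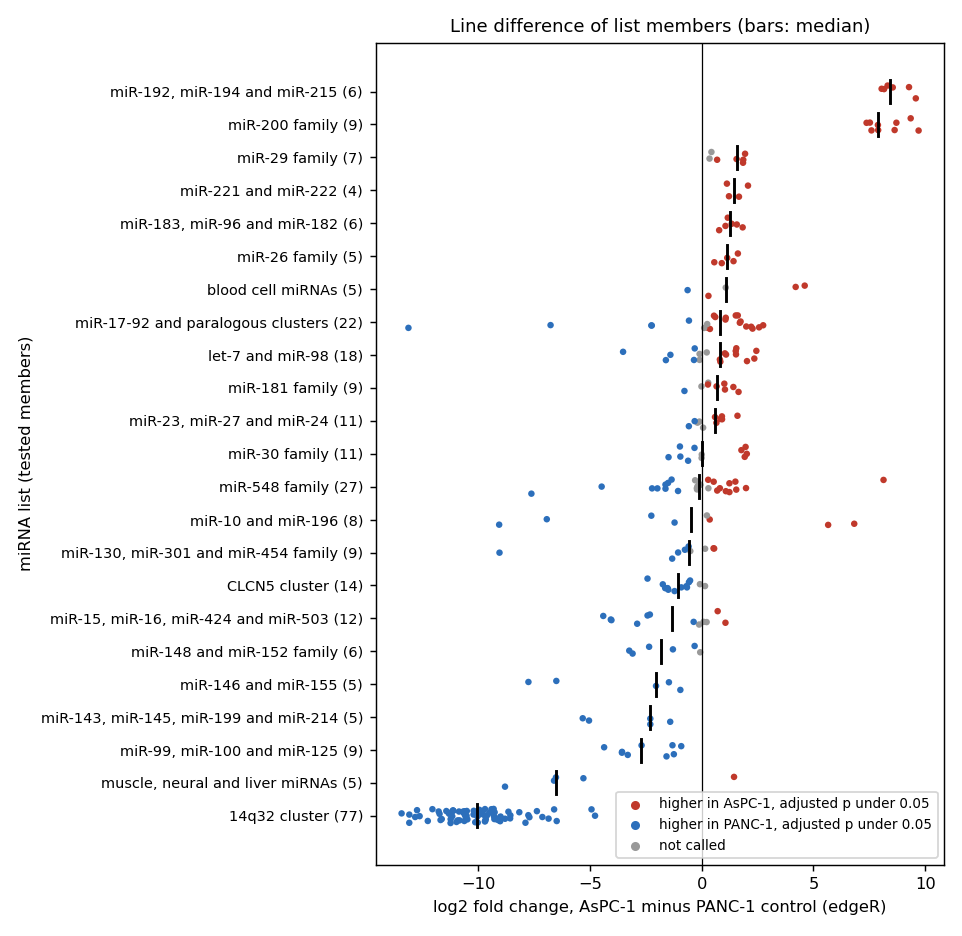
LFC (AsPC-1 minus PANC-1 control) of the tested members of each list with at least 4 of them, with 1 point per miRNA, coloured by call, and a bar at the list's median. The 77 points of the 14q32 cluster lie between −13.44 and −4.78, and the points of miR-192, miR-194 and miR-215 and of the miR-200 family lie above 7.

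Outside 14q32, PANC-1 had the higher level of single miRNAs that AsPC-1 hardly held. MiR-9-5p, a miRNA of the developing nervous system, had 3959, 4201 and 4548 CPM in PANC-1 and 10.88, 7.655 and 9.79 in AsPC-1 (LFC −8.81 ± 0.155, adjusted p = 4.14e-16, edgeR). MiR-218-5p, which is made from the axon guidance genes SLIT2 and SLIT3, had 745.4, 694.1 and 768.6 CPM against 0.1699, 0.319 and 0.4662. MiR-744-5p had 643.6, 638.9 and 635.6 CPM in PANC-1, whereas its 3 AsPC-1 libraries held 3 reads in all. MiR-34c-5p, of a family that p53 induces, had 1650 reads in PANC-1 and 0 in AsPC-1, at least 692-fold more. None of these miRNAs overlapped between the lines (82.1% of all tested miRNAs did not).

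All 5 tested members of the list of miR-146 and miR-155, NF-κB-driven miRNAs that restrain inflammatory signaling, were higher in PANC-1, as were 46.7% of all tested miRNAs. With upper-quartile scaling 3 of the 5 were, against 200 of 627. With at least 10 counts required in every library 3 were, against 148 of 388. MiR-146a-5p had 6413, 6747 and 6208 CPM against 64.57, 80.38 and 67.13, while its relative with the same seed, miR-146b-5p, differed only 4.14-fold (543 ± 54.6 against 131 ± 14.3 CPM). MiR-155-5p had 1339 ± 84.2 CPM in PANC-1 and 688 ± 35.9 in AsPC-1, an LFC of −0.96 that shrank to −0.04 with upper-quartile scaling. The X-linked cluster of miR-424, miR-503 and miR-450, which includes inhibitors of the cell cycle, was higher in PANC-1 in all 5 tested arms assigned to it. MiR-450a-5p had 591, 590.5 and 632.7 CPM against 19.37, 22.65 and 22.69, and the nearby miR-542-3p had 214 ± 11.2 against 5.27 ± 0.43. MiR-195-5p and miR-497-5p, neighbours on chromosome 17 that share the seed of miR-16-5p, had 51.2 ± 4.81 and 86.1 ± 6.2 CPM in PANC-1 against 3.06 ± 1.67 and 4 ± 1.11 in AsPC-1. In the same seed group, miR-16-5p was not called (1366 ± 336 CPM in AsPC-1 against 1177 ± 117 in PANC-1, adjusted p = 0.18, edgeR). It was called with the replicate block (adjusted p = 0.0486, edgeR) and without AsPC-1 control replicate 3 (0.0444) or PANC-1 control replicate 1 (0.0133). It was also called with TMM without the 10 most abundant miRNAs (0.0393), in the joint fit of all 12 libraries (0.0065) and with upper-quartile scaling (LFC 1.13, adjusted p = 4.35e-07). Each of these calls was higher in AsPC-1, but its LFC was −0.12 with total count scaling.

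Of the miRNAs in introns of CLCN5, 12 of 14 were higher in PANC-1 (46.7% of all tested miRNAs), led by miR-532-5p with 3140 ± 340 CPM against 1083 ± 115. With upper-quartile scaling, 6 remained higher in PANC-1 and 5 were higher in AsPC-1. In the family of miR-148 and miR-152, 5 of 6 were higher in PANC-1 (4 with upper-quartile scaling, which put 2 higher in AsPC-1), and miR-148a-3p, an abundant miRNA of normal acinar cells and hepatocytes, had 583.9, 714.2 and 947.7 CPM against 56.58, 94.25 and 110.9.

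**Figure D3:**
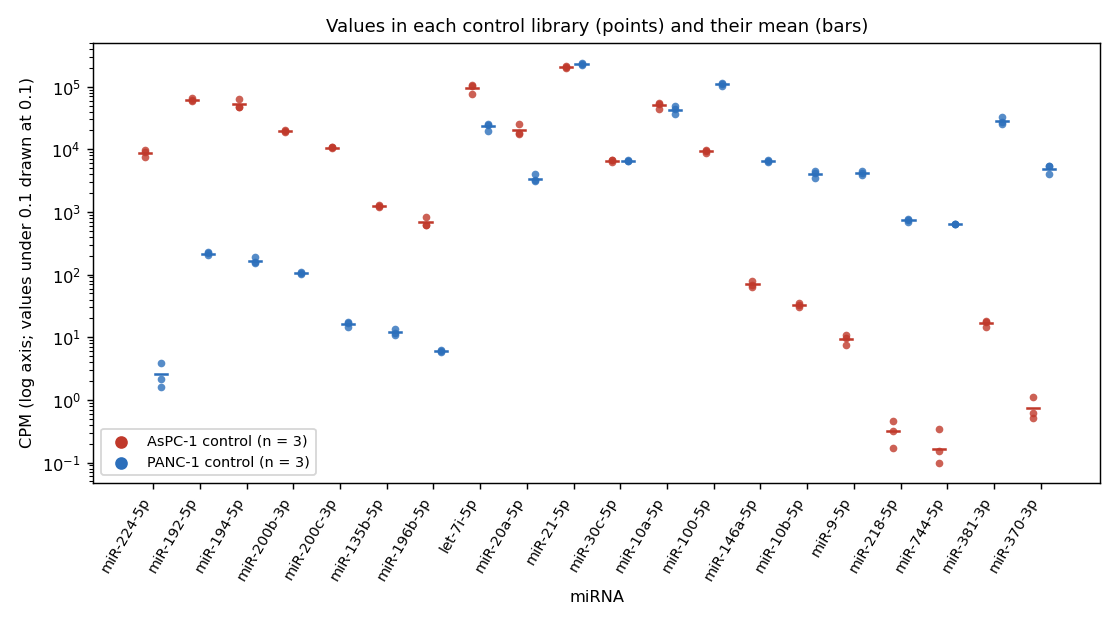
CPM (log axis) of 20 miRNAs in each of the 3 AsPC-1 (red) and 3 PANC-1 (blue) control libraries, with a bar at the mean of each line. MiR-224-5p to miR-196b-5p were high in AsPC-1, miR-146a-5p to miR-370-3p were high in PANC-1, and miR-21-5p, miR-30c-5p and miR-10a-5p had LFCs of −0.19, −0.001 and 0.23.

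The let-7 family, which silences RAS, HMGA2 and LIN28 in differentiated cells, and the families of miR-99, miR-100 and miR-125 are partly made from common transcripts. Let-7 and miR-98 held 17% ± 2.38 of the AsPC-1 reads against 9.43% ± 0.466 in PANC-1, and the list of miR-99, miR-100 and miR-125 held 1.24% ± 0.0259 and 14.2% ± 0.174. Of 18 let-7 arms, 10 were higher in AsPC-1 against 5 in PANC-1. The PANC-1 count was 3 with upper-quartile scaling and with TMM without the 10 most abundant miRNAs. In contrast, all 9 arms of miR-99, miR-100 and miR-125 were higher in PANC-1 with TMM factors, and 7 of 9 with upper-quartile scaling. Of all tested miRNAs, 36% were higher in AsPC-1 and 46.7% in PANC-1. MiR-100-5p, after miR-21-5p the most abundant miRNA of PANC-1, had 104300, 112200 and 114600 CPM against 8740, 9398 and 9737. Its LFC was −3.57 ± 0.0988 (adjusted p = 4.72e-14, edgeR). Let-7i-5p, second in AsPC-1, had 75040, 105200 and 102000 CPM against 19750, 24510 and 25170 (LFC 2.02 ± 0.136, adjusted p = 2.61e-09). AsPC-1 control replicate 1 was the lowest of its line for let-7i-5p, yet above each PANC-1 library.

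Within the family, the direction differed by locus. At chr11:122017229-122023016 (hg19), where MIRLET7A2 and MIR100 lie, all 3 tested arms were higher in PANC-1. They were miR-100-5p, its opposite arm, and let-7a-2-3p, an arm that no other let-7 gene makes (31.8 ± 0.903 against 2.73 ± 0.527 CPM). On chromosome 19, where MIR99B, MIRLET7E and MIR125A lie together in SPACA6, all 6 tested arms were higher in PANC-1, among them let-7e-5p with 1536 ± 137 CPM against 504 ± 21.4. On chromosome 21, miR-99a-5p was higher in PANC-1 (173 ± 4.5 against 17.3 ± 2.26 CPM), and its neighbour let-7c-5p had 322 ± 14.6 against 301 ± 45.4 CPM and was not called. Of the let-7 genes that stand apart from those miRNAs, some gave the reverse, with let-7g-5p at 38280 ± 6708 CPM in AsPC-1 against 13360 ± 1144 in PANC-1 and let-7d-5p at 1849 ± 112 against 640 ± 18.8. The genes of let-7f-2 and miR-98 in HUWE1 on the X chromosome had arms in both directions. Let-7f-2-3p had 25.7 ± 2.7 CPM against 27.5 ± 0.635 and was not called (adjusted p = 0.54, edgeR). MiR-98-5p was higher in PANC-1 (LFC −0.32 ± 0.111, adjusted p = 0.0167, edgeR) and miR-98-3p in AsPC-1 (LFC 0.81 ± 0.247, adjusted p = 0.00759), a call lost with total count scaling (LFC 0.47, adjusted p = 0.0901, edgeR). The call of miR-98-5p was lost without AsPC-1 control replicate 1 or 3 or PANC-1 control replicate 2 or 3 (adjusted p = 0.0875, 0.0671, 0.144 and 0.0869, edgeR), and its LFC was 0.61 with upper-quartile scaling. Let-7a-5p, which 3 loci make, was slightly higher in PANC-1 (LFC −0.35, adjusted p = 0.00409, edgeR), and slightly higher in AsPC-1 with upper-quartile scaling (LFC 0.58).

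**Figure D4:**
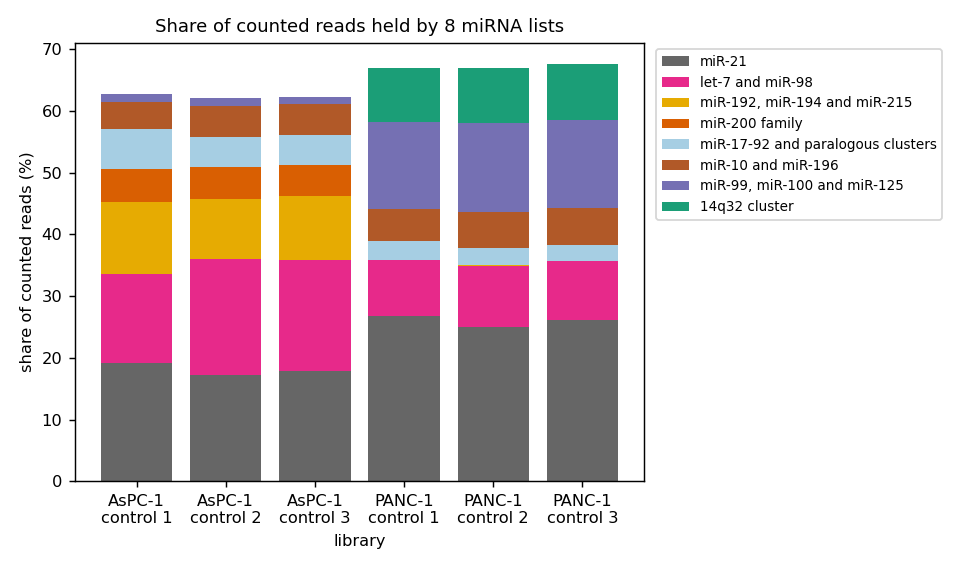
Share of all counted reads, in percent and without scaling, that 8 lists held in each control library, as stacked bars. The segments of the miR-192 and miR-200 lists are seen in the AsPC-1 bars only, and the 14q32 segment in the PANC-1 bars only; the list of miR-99, miR-100 and miR-125 held 1.24% against 14.2% on average.

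The miRNAs that lie within the HOX gene clusters, which set position along the body axis, differed in direction and size. MiR-10a-5p, of the HOXB cluster, was among the 10 most abundant miRNAs of both lines and was not called (50280 ± 5601 CPM in AsPC-1 against 42910 ± 5608 in PANC-1, LFC 0.23 ± 0.114, adjusted p = 0.0766, edgeR). It was called with the replicate block (adjusted p = 0.00172, edgeR), without AsPC-1 control replicate 1 (0.00563) or PANC-1 control replicate 3 (0.0245), and in a joint fit of all 12 libraries (0.000879). It was also called without a filter (0.0358), with TMM without the 10 most abundant miRNAs (0.0131) and with upper-quartile scaling (LFC 1.15, adjusted p = 9.96e-07). Each of these calls was higher in AsPC-1, but its LFC was −0.11 with total count scaling. MiR-10b-5p, of the HOXD cluster (MIR10B, chr2:177015031-177015140, hg19), had 3435, 4121 and 4459 CPM in PANC-1 against 30.08, 35.08 and 32.63 in AsPC-1; the LFC was −6.94 ± 0.145 (adjusted p = 1.91e-15, edgeR). MiR-196b-5p, of the HOXA cluster (chr7:27209099-27209183), went the other way with 844.7, 623.2 and 620.9 CPM in AsPC-1 and 5.914, 6.342 and 6.077 in PANC-1. MiR-196a-5p, which has the seed of miR-196b-5p and is made in HOXB and HOXC, was 2.33-fold higher in PANC-1, as was miR-615-3p of HOXC by 3.36-fold. Summed over both miR-196 members, the seed had 1624 ± 263 CPM in AsPC-1 against 2165 ± 134 in PANC-1 on the scale of these miRNAs (LFC −0.41 ± 0.115, adjusted p = 0.00268, edgeR). With factors computed on the seed sums themselves it was not called (LFC −0.22 ± 0.112, adjusted p = 0.0718).

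Many of the abundant miRNAs were shared. Of the 59 miRNAs with at least 1000 CPM in both lines, 35 had an absolute LFC under 1, although 50 of the 59 were called (82.8% of all tested miRNAs were). MiR-21-5p, an oncogenic miRNA that silences PDCD4, led each of the 6 libraries, with 210500, 196100 and 202600 CPM in AsPC-1 and 228900, 222100 and 241400 in PANC-1. The LFC was −0.19 ± 0.0857 (adjusted p = 0.059, edgeR), and the miRNA was called with the replicate block (adjusted p = 0.00179) and with robust moderation or 2 of the other filters (0.0354 to 0.0477). Total count scaling called it as higher in PANC-1 as well (LFC −0.52, adjusted p = 1.5e-05, edgeR). Upper-quartile scaling called it in the other direction (LFC 0.74, adjusted p = 8.97e-06, edgeR). MiR-30c-5p (6573 ± 311 and 6579 ± 75.2 CPM), miR-23a-3p (3451 ± 272 and 3314 ± 324) and miR-1307-3p (1204 ± 135 and 1280 ± 29.6) had the smallest LFCs of these 59. At the other end, 30 of the 106 miRNAs with at least 1000 CPM in either line differed at least 10-fold, 11 of them higher in AsPC-1 and 19 in PANC-1.

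Markers of cell types, a set of 2 to 8 per type that repeats many members of the lists used above, ranged from no read to high levels. High levels included those of the gut miR-192-5p, miR-194-5p and miR-215-5p, the neural miR-9-5p, the islet miR-7-5p and the acinar miR-148a-3p given above. The other acinar markers, miR-216a-5p, miR-216b-5p and miR-217, and the myeloid miR-223-3p were at or under 0.34 CPM in each library, the other neural marker, miR-124-3p, had 1 AsPC-1 read and 3 PANC-1 reads, and the squamous miR-205-5p had no read. The 6 fibroblast markers (miR-143-3p, miR-145-5p, miR-199a-5p, miR-199a-3p, miR-199b-5p and miR-214-3p) were low in both lines, with sums of 8.39 to 9.89 CPM in AsPC-1 against 96.4 to 106 CPM in PANC-1, and 4 of the 6 were higher in PANC-1 (46.7% of all tested miRNAs). The 7 blood cell markers summed to 453.9 to 561.3 CPM in AsPC-1 against 392.2 to 417.8 in PANC-1, nearly all of it miR-486-5p. Of the 4 muscle markers, miR-1-3p had 116 ± 10.7 CPM in PANC-1 and 1.25 ± 0.575 in AsPC-1, miR-133a-3p had 44 reads in PANC-1 and 1 in AsPC-1, miR-133b had 3 and 0, and miR-206 had none in either. Of the 7 epithelial markers, 5 were called, all of them higher in AsPC-1 (36% of all tested miRNAs were). These 5 belong to the miR-200 family and were already counted above. Outside that family, miR-203a-3p was not called (7.28 ± 0.57 CPM for AsPC-1 against 6.36 ± 1.71 for PANC-1). Traces of the line-specific miRNAs were read in the other line at unequal shares: the PANC-1 level was 0.35% of the AsPC-1 level for miR-192-5p, 0.543% for miR-200b-3p and 0.152% for miR-200c-3p, and the AsPC-1 level was 0.223% of that of PANC-1 for miR-9-5p and 1.09% for miR-146a-5p. Whether these reads come from the cells was not tested.

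To see whether members of a seed group offset each other, counts were summed over miRNAs with the same bases 2 to 8 and scaled with TMM factors of these sums, so that their CPM are on another scale than those of the miRNAs. Of 460 seeds tested, 383 (83.3%) differed, 174 higher in AsPC-1 and 209 in PANC-1; with the library sizes and factors of the miRNA comparison it was 382, with 156 and 226. Of the 30 seeds with at least 2 members of 100 CPM, 12 had every such member higher in AsPC-1, 11 had every such member higher in PANC-1, and 3 had members in both directions. These 3 were the seeds of let-7, of miR-92a with miR-363, and of miR-196. The let-7 seed GAGGUAG summed to 214300 ± 38010 CPM against 81290 ± 5550, an LFC of 1.4 ± 0.107 (adjusted p = 1.56e-12, edgeR). On the scale of the miRNAs it summed to 190600 ± 30220 against 83210 ± 6337 CPM, an LFC of 1.2 ± 0.105. The seed AUUGCAC, of miR-25, miR-92a, miR-92b, miR-32 and miR-363, was higher in AsPC-1 (LFC 0.91 ± 0.0938, and 0.71 ± 0.0859 on the scale of the miRNAs), while miR-92b-3p had 1156 ± 52.2 CPM in PANC-1 against 242 ± 14.5.

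The use of the 5p and 3p arm of a hairpin was compared as the log2 ratio of their counts. Of 160 hairpins, 51 (31.9%) differed (limma, adjusted p under 0.05), 26 with more 5p in AsPC-1 and 25 with more 5p in PANC-1. The count depended on the pseudocount and on single libraries: it was 82 with a pseudocount of 5, 25 without PANC-1 control replicate 2 and 31 without PANC-1 control replicate 3. In many of the 160, an arm had nearly no reads in one line; 103 had at least 10 reads per arm on average in each line, and 33 of these were among the 51. In 4 of the 103, another arm led in each line. For miR-140 the log2 ratio was −0.19, −0.42 and −0.57 in AsPC-1 and 0.3, 0.39 and 0.53 in PANC-1 (adjusted p = 0.0153, limma), and both arms were higher in AsPC-1. The other 3 were miR-556, miR-671 and miR-106b (adjusted p = 0.0142, 0.015 and 0.015, limma). For miR-106b, an intronic miRNA of MCM7, the AsPC-1 replicates were spread (0.7, 1.41 and 1.53, against 0.16, −0.16 and −0.17). The arms of 8 hairpins were called in opposite directions, and those of 121 in one direction.

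Finally, the line difference was measured in 6 libraries that the control comparison did not use, the 3 AsPC-1 and 3 PANC-1 libraries with MYEOV knockdown. There, 523 of 609 miRNAs (85.9%) differed, 229 higher in AsPC-1 and 294 in PANC-1. Of the 508 miRNAs called in the controls and tested here, 487 were called in the same direction, 0 in the opposite direction, and 21 were not called (edgeR). The median absolute difference between both LFCs was 0.24. Pearson's r across the 602 miRNAs was 0.99, which is a description, since miRNAs are not independent replicates and most of the range comes from the 14q32 and AsPC-1-specific miRNAs.

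**Figure D5:**
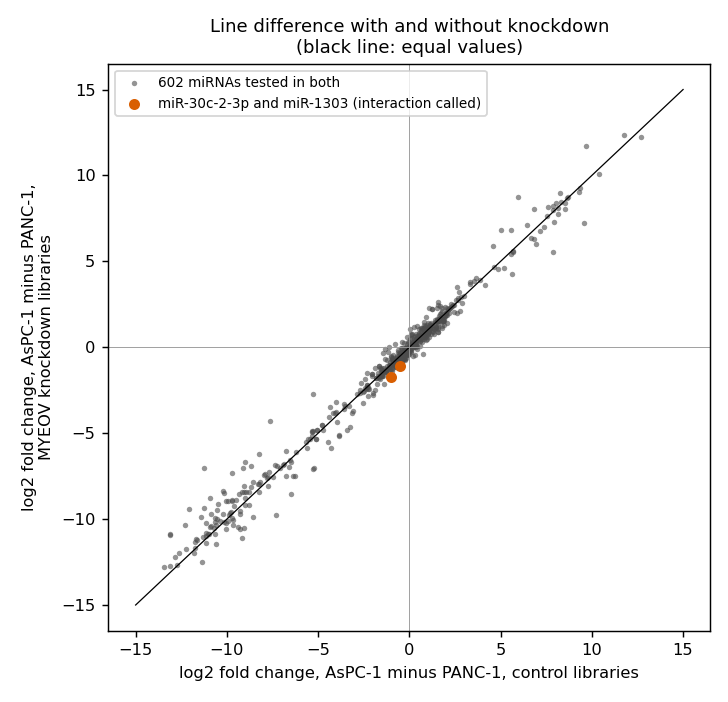
LFC (AsPC-1 minus PANC-1) in the control libraries (horizontal) and in the MYEOV knockdown libraries (vertical) for the 602 miRNAs tested in both. The points lie along the line of equal values, and miR-30c-2-3p and miR-1303, whose line difference changed with the knockdown, are marked.

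The breadth of the profile differed less than its content. The 10 most abundant miRNAs held 58.8% ± 1.62 of the AsPC-1 reads against 60.7% ± 0.752 in PANC-1, and the effective number of miRNAs (the exponential of the Shannon entropy) was 38.4 ± 0.94 and 36.3 ± 0.985. The difference in the former was −1.83 percentage points, and −0.894 without AsPC-1 control replicate 1. PANC-1 had more miRNAs of at least 10 CPM (391 ± 2 against 312 ± 2). It also listed more miRNAs (1119 ± 26 against 1075 ± 18.2) in spite of fewer reads, and at the depth of the smallest library the numbers were 1089 ± 10.9 and 936 ± 23.8. The libraries of the lines did not overlap in these values, and each exact permutation test gave p = 0.1, the smallest that 3 against 3 allows.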

How the data were processed

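Cells of both lines were sequenced as small RNA libraries (single 50-nt reads). The authors trimmed the 3′ adapter, used Bowtie to align the reads to hg19, retained 18- to 28-nt reads without a mismatch, and deposited a raw read count per mature miRNA, in which sequences with another 5′ end are not included. The Bowtie version and the miRNA release are not given in the sources used here. An unlisted miRNA was given a count of 0.

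Groups and replicate numbers came from the labels. MiRNAs were kept by filterByExpr (minimum count 10), scaled with TMM factors and tested with the quasi-likelihood F test of edgeR 4.0.16 in R 4.3.3, with Benjamini-Hochberg adjustment over all miRNAs tested. The SE of an LFC was derived from F (absolute LFC over root F). Seed sums were tested likewise with TMM factors of their own (with those of the miRNAs as an alternative added after seeing the data), and arm ratios (pseudocount 0.5, mean count of at least 10 per arm) with limma 3.58.1. In the knockdown libraries edgeR estimated an infinite prior df, so that all miRNAs were given the spread of the trend, and only counts of calls and LFCs are given from that fit. Folds against a line without reads use 3 reads over its libraries. The edgeR fit of the control comparison was tested on simulated data (602 simulated miRNAs tested). The recovery was 92.9% at an LFC of 1 and 59.2% at 0.5. In the simulation most miRNAs were left unchanged, and the others were changed evenly in both directions. Scaling was therefore not tested for a case like this one, where 82.8% of the tested miRNAs were called.

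The main fits took the libraries as unpaired. Libraries of the same number, which comes from the labels, deviated together (correlations of 0.308, 0.126 and 0.216). A fit with the replicate number as a block was therefore an alternative. Blocked values are printed where they change a call.

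Sequences are from RefSeq (GRCh38.p14), which matched 1536 of 1733 names, and positions from GENCODE for hg19. Near-identical miRNAs, such as miR-199a-3p and miR-199b-3p, had identical counts and are uncertain. The comparison, the 31 miRNA lists and the members were chosen with earlier results of these data known. Named were 87 miRNAs: in each line the 10 most abundant, the 10 with the largest difference at 100 CPM or more and the 5 most abundant with no read in the other line; the 3 most stable at 1000 CPM; and up to 3 per list. A further 27 were named after their values were seen, and so were those in the arm, seed and cluster comparisons. Alternatives were other size factors, DESeq2 1.42.0, robust moderation, other filters, a joint fit of all 12 libraries, the replicate block, a threshold of 0.01 and leaving out each library.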

Additional observations from a re-analysis of the deposited data

Results flagged for a closer look

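The line difference of 2 miRNAs changed with the MYEOV knockdown, by the interaction of line and knockdown (edgeR, 650 miRNAs tested in the 12 libraries jointly). MiR-30c-2-3p was lower in AsPC-1 by an LFC of −0.98 in the control libraries and −1.75 in the knockdown libraries, with an interaction of −0.91 (adjusted p = 0.00306). MiR-1303 had −0.51 and −1.08, with an interaction of −0.71 (adjusted p = 0.00467). The LFCs of the control and of the knockdown libraries are from separately scaled fits, so their difference is not the interaction. Both were chosen because they passed this test.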

How the results depend on the processing

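The count of DE miRNAs stayed within 1.5 times of 519 under each alternative except the filter of at least 10 counts in every library, which tested 388 miRNAs and called 303, of them 148 higher in PANC-1. Upper-quartile factors gave 345 higher in AsPC-1. Of the 519 calls, 57 changed sign with upper-quartile factors and 9 with total count scaling, all with an absolute LFC under 1, and none under the other alternatives. TMM without the 10 most abundant miRNAs shifted the LFCs by 0.13, and the joint fit of all 12 libraries by 0.14. Leaving out 1 library gave 508 to 530 calls, 367 to 386 seed calls and 520 to 527 calls in the knockdown libraries. The number of arm ratio calls was least stable, with 82 (43 with more 5p in AsPC-1 and 39 in PANC-1) at a pseudocount of 5, 25 to 45 without 1 library, the lowest without PANC-1 replicate 2 (25) and replicate 3 (31) (14 to 22 with more 5p in AsPC-1, 11 to 23 with more 5p in PANC-1), and 40 of the 103 hairpins counted in both lines when these were fitted and adjusted on their own, a choice made after seeing the data; the cause was not tested. With the replicate block, 537 miRNAs, 37 hairpins and 515 miRNAs of the knockdown libraries were called. Among the named miRNAs, the block added calls of miR-10a-5p, miR-16-5p, miR-21-5p, miR-24-3p and miR-548o-3p and changed no other call. DESeq2, added after seeing the data, called 509 in the knockdown libraries. At the depth of the smallest library, AsPC-1 listed 153 fewer miRNAs than PANC-1 (difference −153), against −44 at full depth.

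Of the LFCs of 114 named miRNAs, recomputed 1912 times in all, 1806 kept direction and side of the threshold, 23 lost and 33 gained the call, and 50 turned. Each LFC that turned was under 1 in absolute size with TMM. With upper-quartile factors, the LFC was 0.58 for let-7a-5p, 0.83 for let-7c-5p, 0.825 for let-7f-2-3p, 0.61 for miR-98-5p, 0.001 for miR-125a-5p, 0.83 for miR-1307-3p, 0.34 for miR-130b-5p, 0.604 for miR-148b-3p, 0.56 for miR-15b-5p, 0.81 for miR-16-2-3p, 0.56 for miR-21-3p, 0.74 for miR-21-5p, 0.73 for miR-24-3p, 0.92 for miR-30c-5p, 0.595 for miR-30e-5p, 0.82 for miR-31-3p, 0.72 for miR-548o-3p and 0.24 for miR-660-5p, each negative with TMM. With total count scaling it was −0.094 for miR-106a-5p, −0.11 for miR-10a-5p, −0.12 for miR-16-5p, −0.12 for miR-203a-3p, −0.28 for miR-23a-3p, −0.039 for miR-486-5p and −0.055 for miR-548k, each positive with TMM. TMM without the 10 most abundant gave 0.027 for let-7c-5p, 0.028 for let-7f-2-3p, 0.036 for miR-1307-3p, 0.007 for miR-16-2-3p, 0.13 for miR-30c-5p and 0.026 for miR-31-3p, and the joint fit, in this order, 0.042, 0.043, 0.062, 0.02, 0.143 and 0.048. MiR-30c-5p was at 0.005 with DESeq2 size factors, with DESeq2's Wald test and without a filter. Leaving out 1 library turned let-7c-5p, let-7f-2-3p, miR-1307-3p, miR-16-2-3p, miR-30c-5p and miR-31-3p, with ranges of −0.179 to 0.051, −0.182 to 0.02, −0.102 to 0.006, −0.245 to 0.012, −0.018 to 0.069 and −0.171 to 0.021, in this order.

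Depth limits the low end: a miRNA without reads in a line could still be at 0.161 CPM in AsPC-1, or at 0.204 CPM in PANC-1 (3 reads over the 3 libraries), and folds against such levels are lower bounds. The filter of at least 10 counts in every library leaves no value for miRNAs absent from a line.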
